A study of Mus musculus with 20 samples.

Results

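The genes described here are 32 mouse genes of the endoplasmic reticulum (ER) that fold secreted and membrane proteins, sense misfolding or remove what cannot be folded. They were taken by symbol from a list of names, by a rule that uses no measured value. The list itself was chosen with earlier results of these data known. All 32 were present once in the chow table (56748 genes) and once in the table of the high fat diet (HFD, 31184 genes), and all 32 passed the expression filter on chow (19701 genes tested) and on HFD (17715 genes tested). By role they were 10 chaperones and cochaperones (Hspa5, Hsp90b1, Hyou1, Hspa13, Dnajb9, Dnajb11, Dnajc3, Sdf2l1, Manf and Creld2), 2 lectin chaperones (Calr and Canx) and 4 disulfide isomerases (Pdia3, Pdia4, Pdia6 and P4hb). The others were 4 stress sensors and their factor (Ern1, Ern2, Atf6 and Xbp1), 8 genes of ER-associated degradation (Herpud1, Sel1l, Syvn1, Edem1, Edem2, Derl1, Derl2 and Derl3), and 4 genes of translocation, signal cleavage and glycosylation (Sec61b, Sec11c, Ssr1 and Ostc).

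RNA of whole flushed colon was sequenced from 20 mice in 5 groups of 4. On chow, Villin-Cre removed Pcca from the intestinal epithelium of Vill mice, Albumin-Cre removed it from the liver of Alb mice, and ff mice were littermate controls with the floxed gene. These mice were killed at 9 weeks of age after a 4 h fast. On HFD, Vill and ff mice were male, began at 6 weeks to eat food in which fat gave 60% of the calories, and were killed 12 weeks later, at 18 weeks, after the same 4 h fast. Pcca encodes a subunit of propionyl-CoA carboxylase, the enzyme that breaks down propionate. The labels give no batch and do not say whether the mice of a group shared a cage or a litter. Nothing says how replicate numbers were given, so the p-values measure the spread between these mice only.

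Proteins that enter the ER are met by BiP (Hspa5), its cochaperones and the disulfide isomerases, and glycoproteins by the lectin chaperones. When unfolded protein accumulates, the sensors IRE1 (Ern1, and Ern2 in mucosal epithelium), ATF6 and PERK raise the transcription of these genes, in part through the spliced form of Xbp1. In the colon, goblet cells, which secrete mucin, and plasma cells, which secrete antibody, are known for an extensive ER.

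The factors ATF6 and XBP1 are known to bind the ER stress element, CCAAT and CCACG with 9 bases between them, and a shorter form, ATTGG and CCACG with 1 base between them. Promoter windows from 250 bases before to 50 bases after the annotated start (RefSeq, GRCm38.p6) were at hand for 24 of the 32 genes, in 25 windows, and both strands were searched. The elements found are shown because they are a known binding sequence of these factors. They were held by 11 members and were absent from the windows of 13. Genes of ER stress are known targets of these factors, so the shares below are not independent of the choice of genes. The elements are written 5′ to 3′ on the strand that carries them, with the conserved ends in capitals.
Hspa5: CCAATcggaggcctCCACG
Hsp90b1: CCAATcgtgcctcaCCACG
Hsp90b1: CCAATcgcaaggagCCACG
Creld2: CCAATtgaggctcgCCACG
Dnajc3: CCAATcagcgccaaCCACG
Dnajb11: ATTGGcCCACG
Calr: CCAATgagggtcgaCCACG
Canx: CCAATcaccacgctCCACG
Pdia6: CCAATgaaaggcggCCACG
Herpud1: ATTGGgCCACG
Syvn1: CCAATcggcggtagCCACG
Derl3: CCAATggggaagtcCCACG

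The longer form stood in 9 of 25 windows (36%), against 39 of all 32851 windows in the same table (0.119%). The shorter form, held by Dnajb11 and Herpud1, stood in 2 of 25 windows (8%), against 12 of all windows (0.0365%). Hsp90b1 held 2 elements, one on each strand. CCACG alone stood in 84% of these windows and in 32.8% of all, counted on either strand and including the elements above. The XBP1 core TGACGTGG was in 0 of 25 windows and in 0.676% of all. A match is a description of these letters and not a measured binding site. Windows were not at hand for Atf6, Hyou1, Sec11c, Ostc, Ern2, Derl1, Hspa13 and Manf.

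The windows of the BiP gene and of Creld2, a stress-inducible ER protein, are shown whole, because these genes are among the most variable between animals below. The window of Sdf2l1, which was more variable than Hspa5, held no element, and Manf and Hyou1, also among the most variable, had no window. The Hspa5 window is chr2:34771840-34772139 on the plus strand, and the Creld2 window is chr15:88819396-88819695 on the plus strand (GRCm38.p6), with the ends of each element in capitals.
Hspa5: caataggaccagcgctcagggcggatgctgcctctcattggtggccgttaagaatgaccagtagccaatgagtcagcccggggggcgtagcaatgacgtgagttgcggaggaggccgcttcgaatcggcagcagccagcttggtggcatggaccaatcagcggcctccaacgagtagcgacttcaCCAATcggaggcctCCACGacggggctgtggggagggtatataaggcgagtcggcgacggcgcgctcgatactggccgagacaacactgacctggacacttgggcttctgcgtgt
Creld2: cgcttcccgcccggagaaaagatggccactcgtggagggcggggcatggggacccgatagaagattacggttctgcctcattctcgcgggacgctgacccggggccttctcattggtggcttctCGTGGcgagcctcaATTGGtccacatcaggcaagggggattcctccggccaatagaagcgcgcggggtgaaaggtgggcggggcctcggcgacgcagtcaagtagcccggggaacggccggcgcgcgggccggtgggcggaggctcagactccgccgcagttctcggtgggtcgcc

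Reads counted to genes ran from 27.9 to 40.4 M per chow library and from 16.9 to 24.4 M per HFD library. Derl3 had 20 to 62 reads in the HFD libraries, and no other member had fewer than 421 reads in any library. All chow libraries carried Xist and no Ddx3y read, and all HFD libraries carried Ddx3y, so diet, age, sex and the deposited table differ together and cannot be told apart. Pcca itself stood at 27.7 to 33.6 CPM (counts scaled to depth) in chow Vill colons, at 38.9 to 58.3 CPM in chow Alb colons and at 39.5 to 57.2 CPM in chow ff colons. On HFD it stood at 33.2 to 37.3 CPM in Vill colons. The libraries labelled HFD ff 1 and HFD ff 3 held 29.9 and 32.5 CPM of Pcca, below every Vill library and against their label, and HFD ff 2 and ff 4 held 53.7 and 59.5 CPM. A count over the whole gene also takes reads from outside the deleted part. HFD ff 1 and ff 3 also carried the small intestine enzyme gene Sis at 59.7 and 76.9 CPM, against 2.02 CPM or less in the other HFD libraries. On chow, Sis stood at 59.6 CPM in Vill 1 and 32.7 CPM in ff 2, and at 1.19 CPM or less in the others. Squamous epithelium genes summed to 93.6 CPM in Alb 2, against 3.69 CPM or less in the other chow libraries. The epithelial gene Epcam was present in every library, at 1440 to 2058 CPM, as was Krt20, a gene of differentiated colon epithelium, at 478 to 2575 CPM.

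The folding machinery was abundant in every group. Per length, in RPKM (CPM per kilobase of gene length), the highest levels in chow ff colons were those of the isomerase P4hb at 221 ± 23.7 RPKM, the lectin chaperone Calr at 215 ± 29.0 RPKM and the isomerase Pdia3 at 200.1 ± 34.1 RPKM (SD, n = 4 each). BiP followed at 156 ± 56.1 RPKM and Hsp90b1, the ER member of the heat shock protein 90 family, at 114 ± 32.8 RPKM (SD, n = 4 each). Each step between neighbours in this order was smaller than the larger SD of the pair. The same 5 genes ranked highest in every group, and on HFD Calr stood above P4hb. The lowest level in every group was that of Derl3, with 4.19 ± 3.00 RPKM in chow ff colons (SD, n = 4). Above it lay Hspa13, an ER member of the heat shock protein 70 family, at 6.10 ± 0.558 RPKM, the retrotranslocation gene Derl2 at 7.50 ± 0.385 RPKM and the sensors Atf6 at 9.45 ± 0.691 RPKM and Ern1 at 10.6 ± 1.89 RPKM (SD, n = 4 each, chow ff). Ern2, the IRE1 form of mucosal epithelium, stood above Ern1 per length in all 5 groups, with 38.7 ± 8.68 RPKM against 10.6 ± 1.89 RPKM in chow ff colons.

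BiP levels ranged widely among mice of one group. Hspa5 lies on chromosome 2 from 34661982 to 34667559 (mm39, plus strand). In chow Vill colons Hspa5 stood at 503, 526, 446 and 637 CPM, in chow Alb colons at 489, 329, 653 and 574 CPM, and in chow ff colons at 786, 451, 469 and 930.3 CPM. The chow groups overlapped, and the highest levels were those of ff 1 and ff 4. On HFD, Hspa5 stood at 906, 1095, 429 and 1060 CPM in Vill colons and at 758, 718, 392 and 855 CPM in ff colons. Vill 3 and ff 3 lay far below the other 6 HFD libraries.

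Xbp1, which encodes the factor made from the mRNA that IRE1 splices, was highest in the same chow libraries, within a narrower range. It lies on chromosome 11 from 5470659 to 5475893 (mm39, plus strand). Its levels were 218, 225, 231 and 214 CPM in chow Vill colons, 212, 202, 209 and 219 CPM in chow Alb colons, and 299, 199.9, 202 and 281 CPM in chow ff colons. Only ff 1 and ff 4 stood apart among the chow libraries. On HFD, Xbp1 stood at 232, 258, 176 and 287 CPM in Vill colons and at 210.3, 205, 156 and 239.8 CPM in ff colons. These are counts over the gene and do not separate the spliced form.

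The IRE1 genes had another order of libraries. Ern1 stood at 83.0, 96.3, 93.1 and 84.1 CPM in chow Vill colons, at 64.2, 76.6, 67.2 and 98.1 CPM in chow Alb colons, and at 93.4, 68.0, 104 and 82.4 CPM in chow ff colons. Ern2 stood at 119, 119, 130 and 114 CPM in chow Vill colons, at 102, 118, 87.6 and 121 CPM in chow Alb colons, and at 128, 84.6, 142 and 103 CPM in chow ff colons. For both IRE1 genes the lowest chow ff library was ff 2 and the highest was ff 3, in place of ff 4. On HFD, Ern1 stood at 76.8, 64.5, 90.9 and 80.9 CPM in Vill colons and at 50.5, 83.4, 57.3 and 77.7 CPM in ff colons. Ern2 on HFD stood at 102, 82.3, 120.1 and 118 CPM in Vill colons and at 62.1, 98.0, 60.4 and 109 CPM in ff colons. The libraries labelled HFD ff 1 and ff 3, which carry Sis, held the lowest levels of both. Vill 3, which was lowest for BiP among the HFD Vill colons, was highest for Ern1 and Ern2.

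Atf6 had one of the smallest spreads. It stood at 71.7, 89.3, 80.0 and 86.9 CPM in chow Vill colons, at 79.0, 89.9, 72.6 and 77.0 CPM in chow Alb colons, and at 94.5, 79.2, 86.1 and 89.0 CPM in chow ff colons. On HFD it stood at 74.4, 73.9, 88.8 and 81.9 CPM in Vill colons and at 64.9, 75.7, 69.0 and 73.9 CPM in ff colons. All groups within a diet overlapped for Atf6.

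Derl3, a derlin of the retrotranslocation machinery, had the widest spread. It lies on chromosome 10 from 75729247 to 75731775 (mm39, plus strand). Chow Vill colons held 1.96, 7.15, 5.56 and 6.71 CPM, chow Alb colons 2.78, 3.218, 4.13 and 9.86 CPM, and chow ff colons 11.8, 2.86, 3.73 and 15.0 CPM. Again ff 1 and ff 4 were highest. On HFD, Vill colons held 1.64, 1.06, 1.06 and 2.81 CPM and ff colons 1.14, 1.99, 1.34 and 1.64 CPM, on a scale set within the HFD table.

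**Figure D1:**
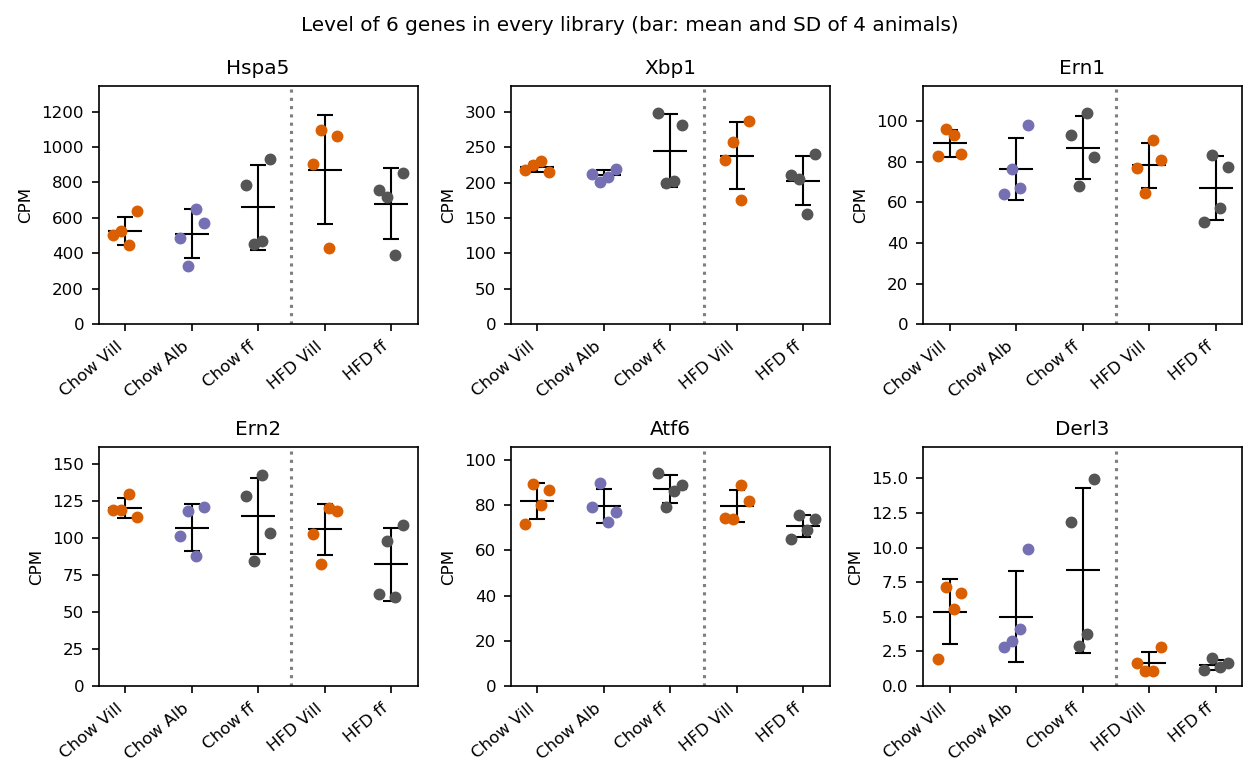
Level in CPM (vertical axis, from 0) of BiP (Hspa5), Xbp1, Ern1, Ern2, Atf6 and Derl3 in every library, by group. Each point is 1 mouse, black bars are the mean and SD of 4 mice, and a dotted line separates chow from HFD. Hspa5, Xbp1 and Derl3 have chow ff 1 and ff 4 above all other chow libraries, and Atf6 lies between 64.9 and 94.5 CPM throughout.

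Across the list, the pattern was one of single mice. Among the 12 chow libraries, ff 1 and ff 4 were together the 2 highest for 22 of 32 members. Taken singly, ff 1 was among the top 2 for 28 members and ff 4 for 24. At the other end, Alb 2, the library with squamous genes, was lowest for 21 members. Relative to the mean of the chow libraries, the median member lay at a log2 deviation of 0.37 in ff 4, 0.35 in ff 1, -0.13 in ff 2 and -0.34 in Alb 2. The 4 controls alone spanned deviations from -0.13 to 0.37.

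Herpud1, the membrane adaptor of ER-associated degradation, was among the members that departed from this pattern. Its levels were 141, 141, 175 and 153 CPM in chow Vill colons, 187, 248, 122 and 150.2 CPM in chow Alb colons and 203, 142, 154 and 152 CPM in chow ff colons. Alb 2, lowest for most members, held the highest Herpud1 level on chow. In all, Alb 2 was among the top 2 chow libraries for 3 members, Herpud1, Atf6 and Derl1.

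On HFD, Vill 4 was highest for 19 of 32 members and ff 3 was lowest for 20. Within the HFD Vill group Vill 3 was lowest for 24 members, and within HFD ff the library labelled ff 4 was highest for 24. The median member lay at a log2 deviation of 0.41 in Vill 4, 0.18 in Vill 2, -0.29 in Vill 3 and -0.45 in ff 3.

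Markers of secretory cells were high in some of these libraries and not in others. The 10 plasma cell genes summed to 5884 CPM in chow ff 1 and 5781 CPM in chow ff 4, against 1565 to 4543 CPM in the other 10 chow libraries. The 10 goblet cell genes summed to 68830 CPM in chow ff 1, the highest of all chow libraries, but to 40090 CPM in ff 4, below the 58090 CPM of Vill 4. A sum follows its most abundant genes. Jchain and Fcgbp went with these sums, Mzb1 did so in part, and Muc2 did not. Mzb1 stood at 1.87 CPM in ff 4, the highest on chow, but at 1.27 CPM in ff 1, below the 1.86 CPM of Alb 4. Its lowest chow levels were in Alb 1 and Vill 1, which also had the lowest plasma sums on chow. Muc2 stood at 9811 CPM in ff 1 and 5582 CPM in ff 4, below the 12590 CPM of Vill 1. The goblet sum was 18590 CPM in Alb 2 and lowest in Vill 3 at 13140 CPM, where the median ER member lay at a log2 deviation of -0.05. On HFD the goblet sum was highest in Vill 4 at 51050 CPM and lowest in ff 3 at 9049 CPM, but Vill 2, with members above the mean, had 13110 CPM. The HFD plasma sum was highest in Vill 3 at 1140 CPM, the library lowest for most members of its group, and stood at 683 CPM in ff 3, above the 378 CPM of ff 1. None of either list was at 0 in any chow library. Their part in the levels of the ER genes was not tested. In whole tissue, fewer cells of a type and less RNA per cell cannot be told apart.

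**Figure D2:**
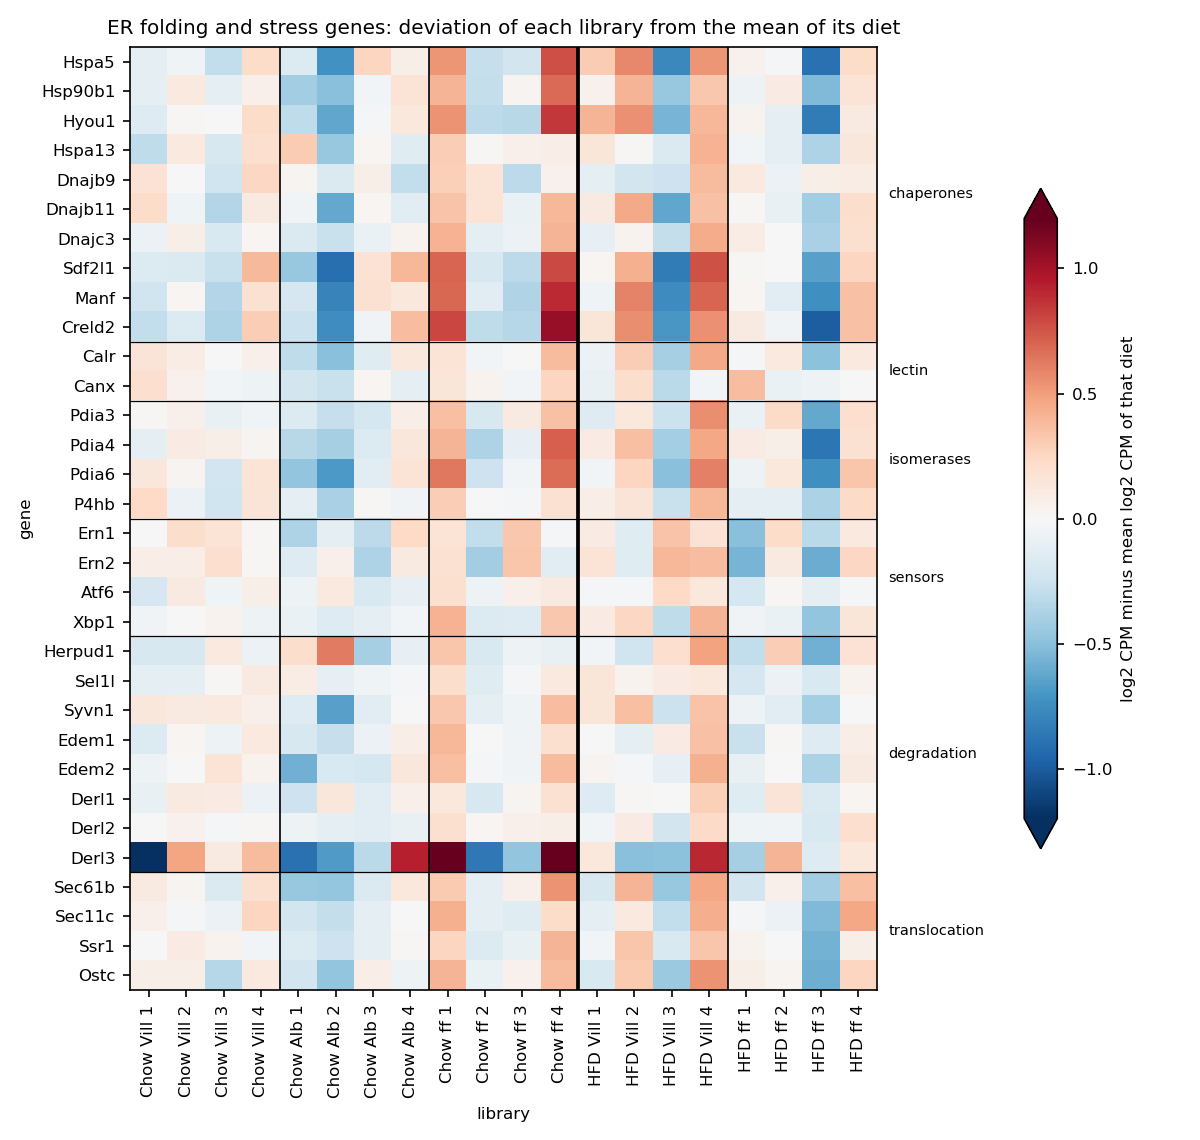
Deviation of each gene in each library from the mean log2 CPM of that diet (colour, red higher and blue lower, colours ending at 1.2 on either side), with genes in lines grouped by role and libraries in columns grouped as chow Vill, Alb and ff, then HFD Vill and ff. Chow ff 1 and ff 4 and HFD Vill 4 stand out in red, and chow Alb 2, HFD Vill 3 and HFD ff 3 in blue, while Herpud1 in Alb 2 goes the other way.

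The roles differed in how far mice of one group lay apart. The SD of log2 CPM within groups, pooled over the 5 groups, had a median of 0.27 over the 32 members. Over all 17564 genes tested on both diets it was 0.33, and over the 7828 of them at a mean of 20 CPM or more it was 0.19. The chaperones and cochaperones had a median of 0.38, the isomerases 0.33, the translocation genes 0.29, the sensors 0.24, the lectin chaperones 0.21 and the degradation genes 0.19. These medians are descriptions of mice in groups of 4 and were not compared by a test.

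The widest spreads were those of Derl3 at 0.80, Creld2 at 0.55, Sdf2l1 at 0.53, Manf at 0.51, BiP at 0.48 and Hyou1 at 0.43. Sdf2l1 is a partner of the cochaperone Dnajb11, Manf a cofactor of BiP that can be secreted, and Hyou1 the nucleotide exchange factor of BiP. For BiP, 1 SD is a factor of 1.4 between mice. The narrowest were Sel1l at 0.11, Derl2 and Atf6 at 0.12, Derl1 at 0.16 and Canx at 0.17. Sel1l is the scaffold of the ligase that marks ER proteins for degradation. Over the 11 members with an ER stress element the median spread was 0.32 (range 0.17 to 0.80), and over the 13 members whose windows held none it was 0.22 (range 0.11 to 0.53). The ranges overlap, and these members were not a random draw.

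**Figure D3:**
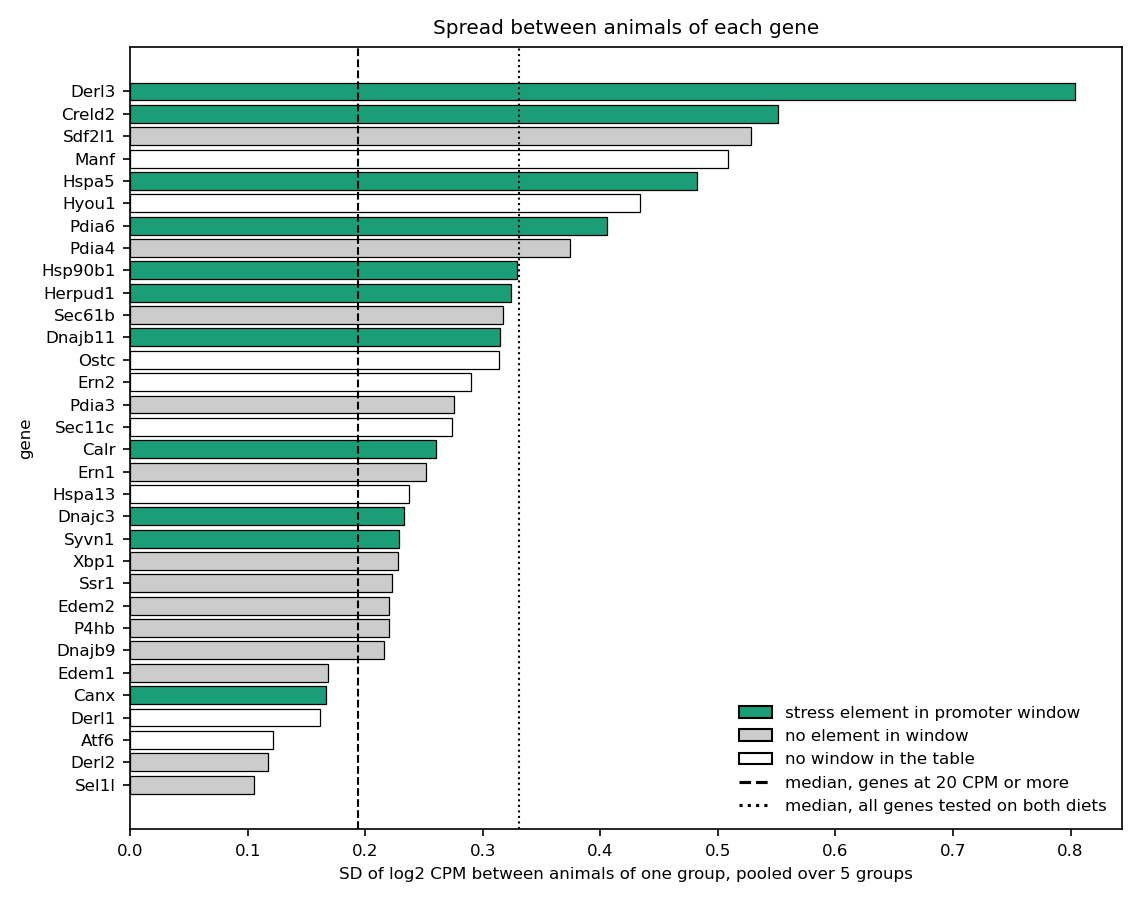
Spread between mice of one group (horizontal axis, SD of log2 CPM pooled over the 5 groups, from 0) for each gene, with the widest at the top. Green bars mark genes with an ER stress element in the promoter window, grey bars none, white bars no window. The dashed line at 0.19 is the median of genes at 20 CPM or more and the dotted line at 0.33 that of all genes tested on both diets, and Derl3, Creld2, Sdf2l1, Manf, Hspa5, Hyou1, Pdia6 and Pdia4 lie beyond the dotted line.

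One comparison asks whether losing Pcca in the gut epithelium altered these genes on chow. Of the 32 members, 30 had a lower fitted level in Vill than in ff colons, but none passed the test in edgeR's quasi-likelihood fit of 12 libraries (lowest adjusted p = 1.00), in DESeq2 or in limma-voom. Over all genes the called share was 0.00508% in edgeR, 0.0152% in DESeq2 and 0.00508% in limma-voom. No member reached an unadjusted p under 0.05, against 1.1% of all genes that did so on the lower side. For 0 members all Vill libraries lay below all ff libraries, against 0.68% of all genes. The median log2 fold change was -0.14 over the members and 0.00 over all genes, 49.2% of which had a lower fitted level.

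Creld2 stood at 38.3, 42.1, 36.4 and 57.9 CPM in Vill colons, against 81.8, 38.1, 37.2 and 97.2 CPM in ff colons. Manf stood at 72.5, 86.9, 67.1 and 97.4 CPM in Vill colons, against 138, 78.7, 66.9 and 159 CPM in ff colons. In both genes 2 ff libraries lay within or below the Vill range and ff 1 and ff 4 lay above it. The log2 fold change of Creld2 was -0.54 (95% interval -1.26 to 0.18, edgeR adjusted p = 1.00) and that of Manf -0.45 (-1.08 to 0.17, edgeR adjusted p = 1.00). Without ff 4 they were -0.28 for Creld2 and -0.24 for Manf, and over all single omissions they ran from -0.74 to -0.28 and from -0.64 to -0.24. Manf shares its span with Rbm15b on the same strand and Dcaf1 on the other strand, so part of its reads is uncertain.

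Dnajc3, a cochaperone of BiP, stood at 152, 167, 141 and 162 CPM in Vill colons, against 213, 148, 152 and 212 CPM in ff colons. Pdia3, the isomerase that works with the lectin chaperones, stood at 564, 580.4, 524 and 542 CPM in Vill colons, against 714, 488, 601 and 709 CPM in ff colons. Edem1, which acts in the removal of misfolded glycoproteins, stood at 175, 199, 188 and 212 CPM in Vill colons, against 258, 195, 190 and 224 CPM in ff colons. In all 3 genes ff 2 or ff 3 lay within or below the Vill range. Ostc, a subunit of the glycosylation enzyme, stood at 91.3, 91.9, 69.0 and 94.6 CPM in Vill colons, against 115, 82.7, 90.3 and 113 CPM in ff colons. The log2 fold changes were -0.22 for Dnajc3, -0.19 for Pdia3, -0.16 for Edem1 and -0.21 for Ostc. Leaving out 1 library at a time, they ran from -0.31 to -0.14 for Dnajc3, from -0.30 to -0.13 for Pdia3 and from -0.24 to -0.079 for Edem1, weakest without ff 1 in each. For Ostc they ran from -0.30 without ff 2 to -0.12 without Vill 3.

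By role, all 10 chaperones and cochaperones (median log2 -0.26), both lectin chaperones (-0.06), all 4 isomerases (-0.19), all 8 degradation genes (-0.08) and all 4 translocation genes (-0.14) had a lower fitted level in Vill colons. The sensors were split, with Ern1 at 0.04 and Ern2 at 0.07 but Atf6 at -0.09 and Xbp1 at -0.14. BiP had a log2 fold change of -0.32 (95% interval -0.90 to 0.25), with 528 ± 80.0 CPM in Vill colons and 659 ± 237 CPM in ff colons (SD, n = 4 each, exact permutation p = 0.4, 2-sided). Derl3 had -0.64 (-1.95 to 0.66), with 5.34 ± 2.35 CPM in Vill colons and 8.35 ± 5.98 CPM in ff colons (SD, n = 4 each). Without ff 4 the values were -0.12 for BiP and -0.22 for Derl3, and without ff 2 they were -0.47 and -0.94. Leaving out ff 1 moved the median of the members to -0.08 and leaving out ff 4 moved it to -0.09. Leaving out ff 3 gave -0.22, with 3 members at an unadjusted p under 0.05. Of the libraries with Sis, leaving out Vill 1 gave -0.14 and leaving out ff 2 gave -0.22, again with 3 members at that limit. The 10 goblet cell genes were lower for 9 (sums 13140 to 58090 CPM in Vill and 27190 to 68830 CPM in ff), and the 10 plasma cell genes for 8 (1565 to 3889 CPM in Vill and 2096 to 5884 CPM in ff). Other marker lists leaned to one side too. All 8 smooth muscle genes had a lower fitted level in Vill (median log2 -0.51, sums 980 to 6549 CPM in Vill and 3930 to 8098 CPM in ff), fibroblast genes for 7 of 7 (-0.32, 631 to 994 CPM in Vill and 808 to 1147 CPM in ff), and genes of neurons and glia for 7 of 7 (-0.26, 19.2 to 99.5 CPM in Vill and 45.6 to 104 CPM in ff). Cycling crypt cell genes were higher for 6 of 6 (0.12, 342 to 494 CPM in Vill and 277 to 532 CPM in ff). The part of these cells in the ER values was not tested.

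Another comparison asks whether losing Pcca in the liver was followed by altered levels in the colon. In Alb colons 31 of 32 members had a lower fitted level than in ff colons, with a median log2 fold change of -0.30 against 0.00 over all genes, 49.9% of which were lower. None passed the test (lowest adjusted p = 0.99 in edgeR, 0.51 in DESeq2 and 0.99 in limma-voom), and of all genes 0% were called by edgeR, 0.0558% by DESeq2 and 0% by limma-voom. At an unadjusted p under 0.05, 11 of 32 members were lower and 0 were higher, beside 2.66% of all genes that were lower at that limit. These members share their mice, so the 11 are not independent. For 1 member, Derl2, all Alb libraries lay below all ff libraries, against 1.59% of all genes.

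The 11 members spanned every role but the sensors. They were the cochaperones Dnajb11 and Dnajc3, the lectin chaperones Calr and Canx, the isomerases Pdia3 and Pdia6, the degradation genes Syvn1, Edem2 and Derl2, and the genes Sec61b and Ostc. Derl2, a derlin, stood at 54.4, 52.3, 51.9 and 53.4 CPM in Alb colons, against 64.8, 57.9, 59.1 and 59.5 CPM in ff colons. Its log2 fold change was -0.19 (95% interval -0.33 to -0.04, edgeR adjusted p = 0.99), and the exact permutation p of 0.0286 (2-sided) is the smallest that 70 assignments allow. Derl2 overlaps Mis12 and the strand protocol is not settled by the labels, so part of its reads is uncertain.

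Sec61b, a subunit of the translocation channel, stood at 50.1, 49.6, 60.9 and 74.7 CPM in Alb colons, against 85.4, 63.4, 71.7 and 99.3 CPM in ff colons. Its log2 fold change was -0.44 (-0.80 to -0.08, edgeR adjusted p = 0.99), and Alb 4 lay above 2 of the ff libraries. Syvn1, the ubiquitin ligase of ER-associated degradation, stood at 68.2, 48.1, 68.9 and 75.6 CPM in Alb colons, against 94.98, 69.6, 73.2 and 97.9 CPM in ff colons. The groups overlapped through Alb 4, and Syvn1 overlaps Mrpl49 on the other strand. Edem2, a partner of Edem1 in mannose trimming, stood at 33.2, 43.5, 42.8 and 54.3 CPM in Alb colons, against 63.7, 48.6, 48.0 and 64.4 CPM in ff colons.

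Pdia6, an isomerase of the BiP complex, stood at 156, 135, 199 and 244 CPM in Alb colons, against 338, 183, 212 and 346 CPM in ff colons. It had the largest difference among the 11, a log2 fold change of -0.56 (-1.06 to -0.05, edgeR adjusted p = 0.99). Canx stood at 286, 277, 339 and 308 CPM in Alb colons, against 369, 344, 326 and 397 CPM in ff colons, and only Alb 3 and ff 3 crossed. The log2 fold changes were -0.36 for Syvn1, -0.37 for Edem2 and -0.25 for Canx.

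BiP was not among the 11. It had a log2 fold change of -0.37 (95% interval -0.94 to 0.21), with 511 ± 139 CPM in Alb colons and 659 ± 237 CPM in ff colons (SD, n = 4 each, exact permutation p = 0.4, 2-sided). Leaving out 1 library at a time moved it between -0.50 without Alb 3 and -0.15 without ff 4. The sensors had smaller fitted differences, -0.18 for Ern1, -0.10 for Ern2, -0.13 for Atf6 and -0.22 for Xbp1. Herpud1 was the only member with a higher fitted level in Alb colons, at 0.12 (-0.31 to 0.55).

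The count of 11 rested on single mice. It was 0 without ff 1, 1 without ff 4, 1 without Alb 2, 3 without Alb 1 and 7 without Alb 3. It was 16 without ff 2 and 19 without ff 3. Without Vill 2, which is in neither group compared but shares the filter, scaling and spread of the fit, it was 5. Fitting only the 8 libraries of these groups gave 4. The median log2 fold change stayed between -0.37 and -0.22 in these single omissions, with 30 to 32 members lower. The goblet cell genes were lower for 10 of 10 (sums 18590 to 39570 CPM in Alb and 27190 to 68830 CPM in ff), and the plasma cell genes for 8 of 10 (1702 to 4543 CPM in Alb and 2096 to 5884 CPM in ff). Of 6 cycling crypt cell genes, 6 were lower in Alb, 5 of them at an unadjusted p under 0.05 (sums 159.5 to 298 CPM in Alb and 277 to 532 CPM in ff). Smooth muscle genes were higher in Alb for 8 of 8 (median log2 0.31, 4268 to 11200 CPM in Alb and 3930 to 8098 CPM in ff) and genes of neurons and glia for 7 of 7 (0.52, 56.3 to 144 CPM in Alb and 45.6 to 104 CPM in ff). Of 7 Paneth cell genes 4 were tested and 4 were lower (-0.91, 348 to 1977 CPM in Alb and 181 to 5035 CPM in ff, with up to 3 of the list at 0 in a library). Mitochondrial transcripts took 3.37 to 4.07% of reads in Alb and 3.14 to 3.92% in ff, with the lowest shares in ff 1 and ff 4. The part of these values in the ER genes was not tested.

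**Figure D4:**
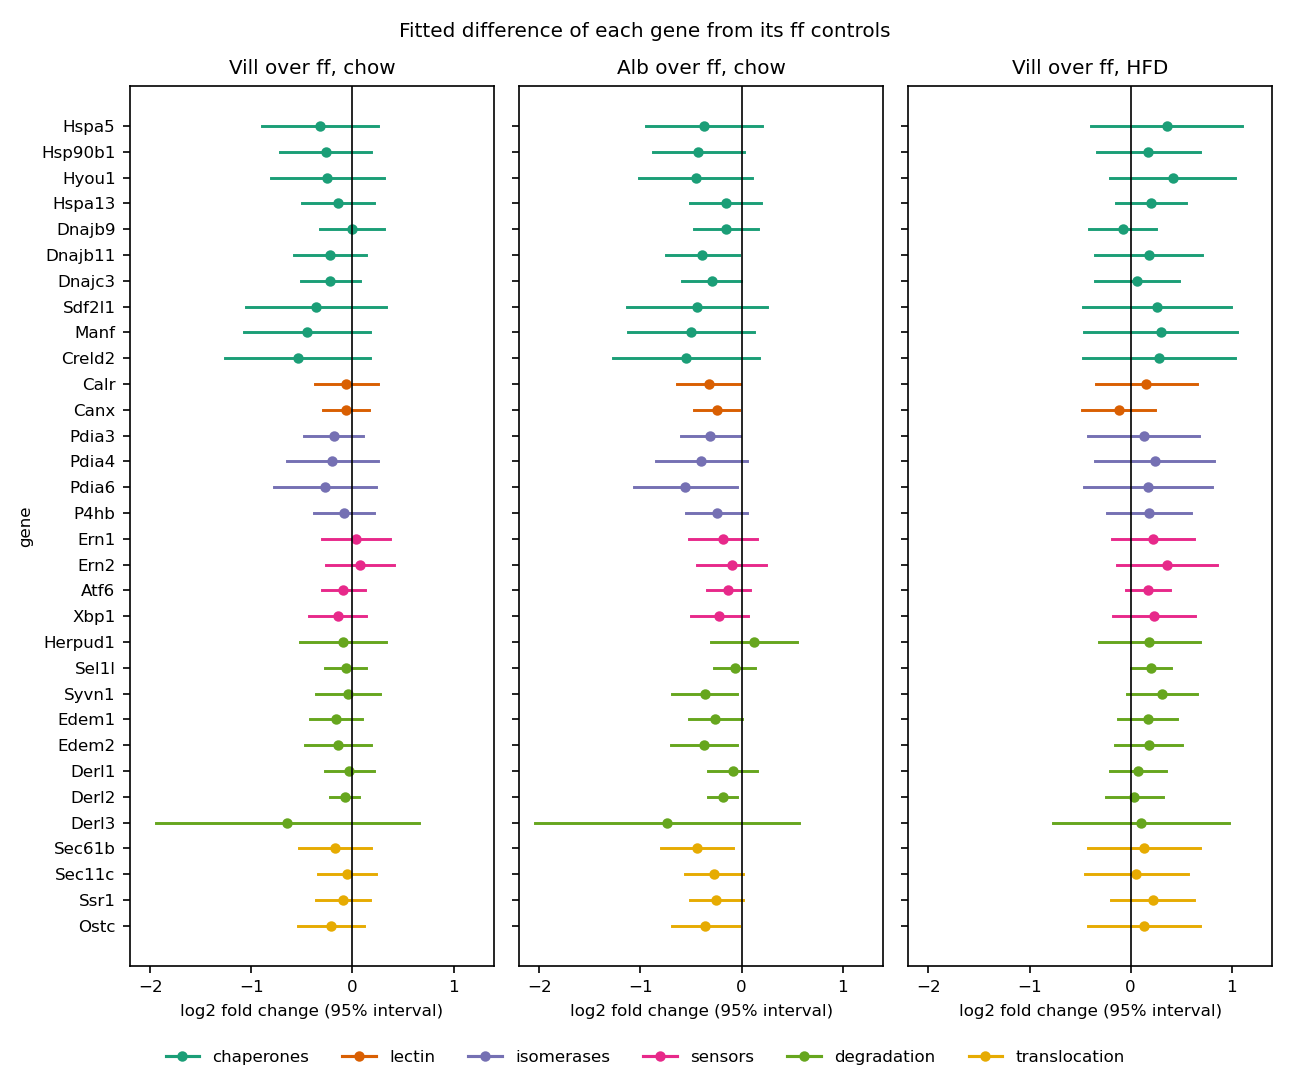
Fitted log2 fold change (horizontal axis, point) and its 95% interval (line) of each gene, coloured by role, for Vill over ff on chow, Alb over ff on chow and Vill over ff on HFD. The chow panels share their ff libraries. Most points lie left of 0 on chow, with medians of -0.14 and -0.30, and right of 0 on HFD, with a median of 0.18. The interval leaves 0 out for 0 genes in Vill over ff on chow, 11 in Alb over ff and 1 on HFD.

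Other ER genes were counted in the same way over 5 lists of 87 genes. In Alb over ff, 67 of 87 had a lower fitted level, 17 of them at an unadjusted p under 0.05, and none was called. Over all genes 49.9% were lower and 2.66% were lower at that limit. The same mice gave these counts as gave the 11 members at that limit, of which 0 stayed there without ff 1, and the omission was not run for the other lists. Of 20 other folding genes 18 were lower and 7 reached that limit, among them the isomerase Pdia5 at 42.0 ± 4.84 CPM in Alb colons and 57.4 ± 13.2 CPM in ff colons, Erp29 at 46.3 ± 6.43 and 56.1 ± 4.22 CPM, and the prolyl isomerase Fkbp11 at 6.53 ± 1.45 and 12.5 ± 6.23 CPM (SD, n = 4 each, Alb and then ff). Of 20 other translocation and glycosylation genes 17 were lower and 5 reached the limit, with Ssr2, of the translocon-associated complex, at a log2 fold change of -0.36, the glycosylation subunit Rpn1 at -0.36 and the signal peptidase subunit Spcs1 at -0.29.

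Of 15 genes of ER to Golgi traffic 12 were lower and 3 reached the limit. They were Kdelr2, the receptor that returns ER residents, at -0.22, the coat gene Copb2 at -0.23 and the cargo receptor Lman1 at -0.35. The 15 other degradation genes were divided, with 9 lower and 1, Selenos at -0.30, at the limit, while Ufd1 stood at 0.15 and Vcp at -0.16. The 17 other stress sensors and factors were divided too, with 11 lower. Bhlha15, a factor of secretory cells such as plasma cells, stood at 4.41 ± 2.58 CPM in Alb colons and 11.6 ± 7.36 CPM in ff colons (SD, n = 4 each), and Ppp1r15a and Eif2ak3 (PERK) stood at log2 fold changes of 0.45 and 0.14. In Vill over ff on chow 65 of the 87 were lower and 1 reached the limit.

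Setting the gut knockout against the liver knockout on chow, 31 of 32 members had a higher fitted level in Vill than in Alb colons. None passed the test (lowest adjusted p = 0.56 in edgeR, 0.51 in DESeq2 and 0.49 in limma-voom), while 0.00508% of all genes were called by edgeR, 0.457% by DESeq2 and 0.00508% by limma-voom. The median log2 fold change was 0.15, against 0.02 over all genes, 47.2% of which were lower. One member, Syvn1, reached an unadjusted p under 0.05, against 3.98% of all genes on the higher side. For 2 members, Syvn1 and Derl2, all Vill libraries lay above all Alb libraries, against 2.59% of all genes.

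Syvn1 stood at 83.1, 81.9, 81.9 and 79.0 CPM in Vill colons, against 68.2, 48.1, 68.9 and 75.6 CPM in Alb colons, with a log2 fold change of 0.32 (0.00 to 0.64, edgeR adjusted p = 0.56). Without Alb 2 the value was 0.18. Derl2 stood at 56.9, 58.9, 55.9 and 57.3 CPM in Vill colons, against 54.4, 52.3, 51.9 and 53.4 CPM in Alb colons, with a log2 fold change of 0.11. The ranges were narrow and close to each other. Calr stood at 626, 600.2, 566 and 588 CPM in Vill colons, against 455, 399, 511 and 615 CPM in Alb colons, and Alb 4 fell inside the Vill range.

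Canx stood at 383, 345, 326 and 318 CPM in Vill colons, against 286, 277, 339 and 308 CPM in Alb colons. Sec11c, the catalytic subunit of signal peptidase, stood at 104, 98.2, 94.2 and 119 CPM in Vill colons, against 85.1, 81.2, 91.7 and 98.6 CPM in Alb colons. Sec61b stood at 73.9, 70.2, 60.9 and 78.3 CPM in Vill colons, against 50.1, 49.6, 60.9 and 74.7 CPM in Alb colons. These 3 overlapped, with log2 fold changes of 0.18 for Canx, 0.22 for Sec11c and 0.27 for Sec61b. BiP stood at 0.05 (95% interval -0.53 to 0.62) and Xbp1 at 0.08 (-0.20 to 0.36). Without Alb 2, the library with squamous genes, the median over the members was 0.07 and 8 members were lower in Vill. Without Vill 4 the median was 0.09 and 9 members were lower, and without Alb 4 the number at an unadjusted p under 0.05 was 5. The goblet cell genes were higher for 9 of 10 and the plasma cell genes for 8 of 10, while smooth muscle genes were lower for 8 of 8 (sums 980 to 6549 CPM in Vill and 4268 to 11200 CPM in Alb). Genes of neurons and glia were lower for 7 of 7 (median log2 -0.91, 19.2 to 99.5 CPM in Vill and 56.3 to 144 CPM in Alb) and fibroblast genes for 7 of 7 (-0.38). The cycling crypt cell genes were higher for 6 of 6, all at an unadjusted p under 0.05 (342 to 494 CPM in Vill and 159.5 to 298 CPM in Alb). The part of these cells in the ER values was not tested.

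On HFD the fitted differences between Vill and the libraries labelled ff pointed upward. Of 32 members 30 had a higher level in Vill colons, with a median log2 fold change of 0.18 against 0.00 over all genes, 50.7% of which were lower. None passed the test (lowest adjusted p = 0.93 in edgeR, 0.99 in DESeq2 and 0.91 in limma-voom), while 0.00564% of all genes were called by edgeR, 0.0113% by DESeq2 and 0.00564% by limma-voom. One member, Sel1l, reached an unadjusted p under 0.05, against 1.41% of all genes on the higher side. Sel1l was also the 1 member for which all Vill libraries lay above all ff libraries, against 1.22% of all genes.

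Sel1l stood at 149, 139, 144 and 147 CPM in Vill colons, against 117, 128, 118 and 139 CPM in ff colons. The lowest Vill library, at 139.2 CPM, and the highest ff library, at 139.1 CPM, all but touched. Its log2 fold change was 0.20 (95% interval 0.00 to 0.40, edgeR adjusted p = 0.93, exact permutation p = 0.0286, 2-sided, the smallest possible). Its ligase Syvn1 stood at 64.6, 75.3, 48.9 and 73.9 CPM in Vill colons, against 55.9, 53.5, 44.2 and 58.7 CPM in ff colons, with a log2 fold change of 0.31 (-0.04 to 0.65). Vill 3 lay below 3 of the ff libraries for Syvn1.

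Atf6 and Ern2, whose values are given above, had log2 fold changes of 0.17 (-0.04 to 0.39) and 0.36 (-0.14 to 0.86). Hyou1 stood at 192, 213, 98.4 and 192 CPM in Vill colons, against 149.6, 134, 81.1 and 156 CPM in ff colons. Hspa13 stood at 54.9, 50.1, 44.1 and 66.4 CPM in Vill colons, against 48.5, 45.8, 38.4 and 54.5 CPM in ff colons. In both, Vill 3 and ff 3 were the lowest of their groups, and the groups overlapped. BiP had a log2 fold change of 0.36 (-0.39 to 1.11), with 873 ± 307 CPM in Vill colons and 681 ± 201 CPM in ff colons (SD, n = 4 each, exact permutation p = 0.43, 2-sided). It ran from 0.16 without ff 3 to 0.58 without Vill 3. The members with a lower fitted level were Canx at -0.12 and Dnajb9, a cochaperone of BiP, at -0.08.

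The upward lean rested on few mice. Without the libraries labelled ff 1 and ff 3, the median over the members was 0.04, 15 of 32 were lower in Vill, none reached an unadjusted p under 0.05, and Ern1 and Ern2 stood at -0.04 and 0.04. Without ff 3 alone the median was 0.06, and without Vill 4 it was 0.07 with 11 members lower. Without Vill 3 it was 0.29 and without ff 4 it was 0.28. Small intestine genes were lower in Vill for 7 of 8 tested, 4 of them at an unadjusted p under 0.05 (sums 532 to 676 CPM in Vill and 563 to 1466 CPM in ff). The goblet cell genes were higher for 9 of 10 (13110 to 51050 CPM in Vill and 9049 to 41390 CPM in ff) and the plasma cell genes for 8 of 8 tested (420 to 1140 CPM in Vill and 378 to 846 CPM in ff, with Mzb1 at 0 in 1 Vill library). The cycling crypt cell genes were higher for 6 of 6 (453 to 622 CPM in Vill and 333 to 463 CPM in ff). Genes of neurons and glia were lower for 7 of 7 (median log2 -0.80, 9.69 to 77.5 CPM in Vill and 42.0 to 161 CPM in ff). Mitochondrial transcripts took 4.66 to 6.98% of reads in Vill and 4.5 to 9.75% in ff, where ff 1 stood apart at 9.75%. The part of these in the ER genes was not tested.

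The opposite leans on chow and HFD were set against each other in a joint fit of 16 libraries, Vill and ff on both diets. The Vill effect on HFD minus that on chow was above 0 for 30 of 32 members, with a median of 0.32 against -0.01 over all genes, 51.9% of which were below 0. None passed the test (lowest edgeR adjusted p = 1.00), and 0% of all genes were called by edgeR, DESeq2 or limma-voom. Only Sel1l reached an unadjusted p under 0.05, against 1.01% of all genes on the higher side, with a difference of 0.27 (95% interval 0.00 to 0.54). Next by p stood Atf6 at 0.26 (-0.01 to 0.54), Edem1 at 0.34, Syvn1 at 0.36, Hspa13 at 0.35 and Edem2 at 0.33. BiP had a difference of 0.68 (-0.26 to 1.62).

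On HFD Edem1 stood at 188, 172, 199.5 and 238 CPM in Vill colons, against 155, 188, 168 and 197 CPM in ff colons. Edem2 stood at 48.0, 46.5, 43.9 and 62.8 CPM in Vill colons, against 44.0, 47.1, 36.1 and 50.4 CPM in ff colons. Hspa13 on chow stood at 31.2, 41.7, 33.7 and 44.4 CPM in Vill colons, against 47.3, 38.8, 40.1 and 40.6 CPM in ff colons. Sel1l on chow stood at 132, 132, 143 and 153 CPM in Vill colons, against 164, 128, 139 and 154 CPM in ff colons. For Edem1, Edem2 and Hspa13 the Vill and ff libraries overlapped on each diet, and for Sel1l on chow. Without the libraries labelled HFD ff 1 and ff 3 the median difference was 0.18, with 6 of 32 below 0 and none at an unadjusted p under 0.05. Without HFD Vill 3, 8 members were at that limit. The goblet cell genes had a difference above 0 for 9 of 10 and the plasma cell genes for 9 of 10, and their part was not tested.

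Averaged over both diets, the Vill effect on these genes was near 0. There 14 members were lower and 18 higher, with a median log2 fold change of 0.01 against 0.00 over all genes, 49.6% of which were lower. None passed the test (lowest edgeR adjusted p = 0.96), none reached an unadjusted p under 0.05, against 3.46% of all genes in either direction, and 0.00512%, 0.0359% and 0.0102% of all genes were called by edgeR, DESeq2 and limma-voom. The members with the smallest p were Ern2 at 0.22 (95% interval -0.08 to 0.52), Syvn1 at 0.14, Ern1 at 0.13, Sel1l at 0.07, Canx at -0.09 and Derl3 at -0.27. BiP stood at 0.02 (-0.45 to 0.49). The split between lower and higher moved with single mice, from 5 members lower without HFD Vill 3 or HFD ff 4 to 25 without HFD Vill 4. Without the libraries labelled HFD ff 1 and ff 3 it was 27 lower, with a median of -0.06.

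In the authors' deposited tables no member had an adjusted p under 0.05 in any of the 4 comparisons. The lowest was 0.65 in the authors' deposited table of the gut against the liver knockout. By the log2 fold changes of the authors' deposited tables, 30 members were lower in the gut knockout and 31 in the liver knockout on chow, and 2 were lower in Vill on HFD. At a deposited unadjusted p under 0.05 stood 3 members in the liver knockout against controls, where the edgeR fit here had 11. In the other comparisons 0 members reached that deposited limit.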

How the data were processed

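Colon RNA of 20 mice was measured in libraries of poly-T selected mRNA, per the labels' protocols. The authors deposited raw read counts per gene in one table for chow and another for HFD. The authors' tools were HISAT2 2.0.5, featureCounts 1.5.0-p3, DESeq2 1.20.0 and edgeR 3.22.5 on mm39, per the submitters' processing notes, which give no roles. The deposited log2 fold changes and p-values come from the authors' own comparisons, per the file headers, and were only set beside the results here. Another 28 per-sample columns were not used.

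Counts were analysed with edgeR 4.0.16 in R 4.3.3. The quasi-likelihood test used TMM scaling and filterByExpr, with Benjamini-Hochberg adjustment over all tested genes and calls at an adjusted p under 0.05. The chow comparisons came from 12 libraries, the HFD comparison from 8, and the comparisons across diets from 16. DESeq2 1.42.0 and limma 3.58.1 (voom) were alternatives. So were other size factors, no filter on low counts, a replicate block, fits of only 8 libraries and leaving out libraries. The fits were tested on simulated counts. For single genes, mean log2 CPM of the groups was set against all 70 assignments of the libraries in an exact permutation test (2-sided, smallest p 0.0286). CPM were counts per TMM-scaled depth, and RPKM used the deposited gene length. Tables of the diets were scaled separately, so levels across diets are side by side only. The spread used log2(CPM + 0.1). Overlapping genes are uncertain, since the labels do not settle the strand protocol. Promoters were searched with Python 3.11.15.

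The members, gene lists, markers and tests were chosen with earlier results of these data known. Named were the members called or, with fewer than 6 called, the 6 with the smallest p per comparison, Hspa5, Xbp1, Ern1, Ern2, Atf6 and Derl3 throughout, and the 3 genes of each other list with the smallest p in the comparison with most members at an unadjusted p under 0.05. The rule foresaw up to 4 promoters. The elements of all 11 genes and the windows of 2 are printed, and these were chosen after their values were seen, as were Herpud1, Derl2 and Dnajb9 where they stand outside the rule.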

Additional observations from a re-analysis of the deposited data

Results flagged for a closer look

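Within groups of 4, 5 of the 160 combinations of member and group held a library far from the other 3, by the gap to its nearest neighbour over the range of the group. Chance alone gives about 1 such group in 20. Sdf2l1 stood at 47.6 CPM in chow Vill 4, against 32.4 CPM in the nearest library of its group (gap over range 0.875). Ostc stood at 69.0 CPM in chow Vill 3, against 91.3 CPM in the nearest (0.871). Of the chow libraries, Vill 3 had the lowest goblet and smooth muscle sums. Canx stood at 703 CPM in HFD ff 1, against 544 CPM in the nearest (0.835). Pdia4, a disulfide isomerase, stood at 92.5 CPM in HFD ff 3, against 176 CPM in the nearest (0.848). Ssr1, of the translocon-associated complex, stood at 144.5 CPM in HFD ff 3, against 214.9 CPM in the nearest (0.88). The libraries labelled HFD ff 1 and ff 3 are those whose Pcca level goes against their label.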

How the results depend on the processing

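No member was called under any alternative run. Every comparison of members with the settings below is of fitted values, with 4 mice a group, and Derl3 on HFD rests on 20 to 62 reads. DESeq2 called 3 genes for Vill over ff and 11 for Alb over ff on chow, 90 for Vill over Alb, 2 for Vill over ff on HFD and 7 for the average. In Vill over Alb it left 0 members at an unadjusted p under 0.05 and 4 lower, as did DESeq2 size factors in edgeR (0 and 4). Those size factors also gave 0 members at that limit on HFD and 0 for the difference between diets, where limma-voom gave 0 as well. Limma-voom called 2 genes for the average. With no filter on low counts, 2 genes were called for Vill over ff on chow and 2 for the average, and 0 members stood at the limit on HFD and 0 for the difference. Correlations of same-numbered mice ran from -0.571 to 0.472. The same number was the best match for chow Alb 4 among the ff mice, and for HFD Vill 1 and Vill 4. These values cannot tell whether the numbers pair samples, since nothing says how the numbers were given. With the replicate block, 0 genes were called for Vill over ff and 0 for Vill over Alb on chow, and 2 members stood at the limit on HFD and 2 for the difference. With only 8 libraries, 4 members stood at the limit for Alb over ff.

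Without the libraries labelled HFD ff 1 and ff 3, 2 genes were called on HFD and 2 for the average. Members at the limit were 0 on HFD and 0 for the difference, and members lower were 15 on HFD, 6 for the difference and 27 for the average. Ern1 stood at -0.039 and Derl3 at -0.14 on HFD, Ern1 at -0.0796 and Ern2 at -0.041 for the difference, and Ern1 at -0.000502, Hspa5 at -0.084 and Xbp1 at -0.021 for the average. The cause of these moves was not tested.

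Leaving out 1 library at a time, Vill over ff on chow had 0 to 3 members at the limit, Ern1 at -0.073 to 0.12 and Ern2 at -0.056 to 0.18. Alb over ff had 0 to 19 members at the limit and Ern2 at -0.21 to 0.023. Vill over Alb had 0 to 5 members at the limit, 1 to 9 lower, Hspa5 at -0.13 to 0.17, Atf6 at -0.020 to 0.087 and Derl3 at -0.10 to 0.64. Vill over ff on HFD had 0 to 2 at the limit, 2 to 11 lower and Derl3 at -0.30 to 0.27. The difference had 0 to 8 at the limit and 0 to 3 below 0. The average had 1 to 2 genes called, 0 to 1 members at the limit, 5 to 25 lower, a median of -0.04 to 0.06, Hspa5 at -0.072 to 0.14 and Xbp1 at -0.0056 to 0.11.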
